A study of Mus musculus with 2 samples.

Results

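The genes described here encode the subunits of the mitochondrial oxidative phosphorylation machinery. They were chosen by symbol alone: every gene of the deposited matrices whose symbol marks a protein of respiratory complex I, III or IV or of ATP synthase (mt-Nd, mt-Co, mt-Cytb, mt-Atp, Nduf, Uqcr, Cox4 to Cox8 and Atp5), leaving out Ndufa4l2. The rule found 93 of 32285 genes, of which 13 are encoded by the mitochondrial genome and 80 by the nucleus. The nuclear genes comprise 36 of complex I, 8 of complex III, 19 of complex IV (with Ndufa4, named for complex I but a subunit of complex IV) and 17 of ATP synthase. Ndufb1-ps, counted with complex I by its symbol, is annotated in GENCODE M21 as a non-coding RNA and not as protein-coding. The 13 mitochondrial genes comprise 7 of complex I, 1 of complex III, 3 of complex IV and 2 of ATP synthase, and they are the only mt- symbols in the matrices.

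The tissue was mouse kidney, dissociated to single cells on day 14 after ischemia-reperfusion injury of 1 side, produced by clamping the renal artery. One library came from mice labelled Cre-, the control; the other came from mice labelled Cdh5-CreERT2; Phd3f/+, described as haplodeficient for endothelial PHD3. Cdh5-CreERT2 is a tamoxifen-activated recombinase under an endothelial promoter, so the deletion of 1 copy of Phd3 (Egln3, an oxygen-sensing prolyl hydroxylase) is directed at endothelial cells. Both groups had the injury and 4 tamoxifen injections and carry the same batch number; the labels do not say whether the Cre- mice carry the floxed allele, how many animals entered a library, or their age. Cells are called control or haplodeficient by their library, whatever their type. With 1 library per group no difference below has a replicate check or a test: each is a difference between these 2 libraries, and the intervals given are 95% exact intervals that cover counting error only.

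Oxidative phosphorylation passes electrons from complex I and complex II through complex III to complex IV, where oxygen is reduced, and ATP synthase uses the proton gradient that results. The mitochondrial genome encodes the hydrophobic core of these complexes, and the nucleus encodes the remaining subunits, which are imported and assembled around that core. In the kidney, the proximal tubule and the thick ascending limb, which reabsorb most of the filtered salt, hold dense mitochondria, whereas endothelial and immune cells hold few.

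The 2 libraries differed over all cells in the level of the mitochondrial genes. Barcodes with at least 500 UMIs (unique molecular identifiers, 1 per captured RNA molecule) and at least 200 genes came to 10026 (control) and 10056 (haplodeficient). Of these, 574 and 30 had over 50% mitochondrial UMIs and were left out, as were 715 and 804 likely doublets, which left 8737 and 9222 cells with a median of 8585 and 5377 UMIs. The 13 mitochondrial genes made up 14.0% of the UMIs of these cells in the control library and 4.29% in the haplodeficient library. They also made up 23.0% and 8.90% of the UMIs in barcodes of 1 to 100 UMIs, which hold free RNA and no cell. Cell make-up differed as well. Proximal tubule-like cells, with the highest mitochondrial share of the classes compared below, were 2948 of the control and 331 of the haplodeficient cells. The part of this make-up in the library totals was not tested. Among the 10026 and 10056 barcodes, 30 sequences were present in both libraries. Egln3, the targeted gene, had 43 UMIs (22.6 CPM, UMIs scaled to a common total of nuclear-gene UMIs) in the endothelial-like cells of the control and 105 (24.9 CPM) in the other library, a ratio of 1.10 (0.765 to 1.61); 3′ tags need not lie in the deleted part, so this does not check the deletion. The Cldn5-led cluster, which also expressed all 8 endothelial markers, had lower Egln3 in the haplodeficient library by more than counting error. Its level went from 22.9 to 10.1 CPM (31 and 25 UMIs, ratio 0.442, with an interval up to 0.773). The same limit of 3′ tags applies there. Egln3 was also lower by more than counting error in classes not led by endothelial markers. In neutrophil-like cells it went from 198 to 69.6 CPM (33 and 82 UMIs, ratio 0.351, 0.232 to 0.543). It went from 7.74 to 3.23 CPM in the Slc26a4-led cluster (60 and 28 UMIs, ratio 0.417). Thin limb-like cells went from 8.20 to 5.11 CPM (46 and 42 UMIs, ratio 0.623). No class had an interval wholly above 1.

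Cells were clustered without the member genes, and clusters were named from marker lists. 17 classes held at least 100 cells in each library: 14 named ones and 3 clusters called by their leading gene. The Psca-led cluster had leading genes of another class's list. The Slc26a4-led cluster was deep and held markers of both intercalated and principal cells. The Cldn5-led cluster expressed 8 of 8 endothelial markers but also Aqp1, a thin limb marker on the lists used here. The endothelial-like class of 289 control and 654 haplodeficient cells held all 8 endothelial markers, at 7353 and 8405 summed CPM.

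Mitochondrial subunit RNA was lower in the haplodeficient library in every one of the 17 classes, to between 0.304 and 0.773 of the control level, with a median ratio of 0.528. In endothelial-like cells the 13 genes made up 4.40% of all UMIs in the control (4.37 to 4.43) and 2.32% in the haplodeficient library (2.31 to 2.34), a ratio of 0.528. In proximal tubule-like cells, 2948 control and 331 haplodeficient ones, they made up 22.9% and 11.2%. Every proximal tubule cluster was lower, with ratios of 0.53, 0.46, 0.38, 0.55 and 0.55 in clusters that held between 10 and 157 haplodeficient cells. The class's make-up differed: the shallowest cluster (median UMIs 2037 and 2257) held 609 of the control and 157 of the haplodeficient cells. The largest difference was in thick ascending limb-like cells, from 15.3% to 4.67% (ratio 0.304, 0.303 to 0.305), in 508 and 406 cells of a single cluster. Neutrophil-like cells went from 2.97% to 0.945% and macrophage-like cells from 4.13% to 2.08%. The Cldn5-led cluster had the smallest difference, from 3.17% to 2.45%, and the injured tubule-like class followed with 9.01% and 6.12%. That class was named by 4 of 7 markers, with Havcr1 and Vcam1 among its leading genes. Its 7 listed markers summed to 2729 and 2397 CPM, and the 10 proximal tubule markers to 4183 and 4214 CPM. Among the classes too small to compare, the ratio was 0.261 in NK cell-like cells (19 and 135 cells) and 0.296 in monocyte-like cells (60 and 367). It was 0.410 in the Igkc-led cluster, 0.486 in podocyte-like and 0.602 in plasmacytoid dendritic-like cells. Urothelium-like cells were nearest to equality, with 5.15% and 4.99% in 18 and 25 cells.

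The order of the classes was much the same in both libraries. The highest mitochondrial share was in proximal tubule-like and the lowest in neutrophil-like cells in each, and across the 17 classes the control and haplodeficient shares had a Pearson correlation of 0.94 and a Spearman correlation of 0.90. Classes with a high mitochondrial share also had a high nuclear subunit level: across classes the correlation of the mitochondrial share with the summed nuclear level was 0.96 in either library (Pearson), with Spearman values of 0.93 and 0.89. These are descriptions over 17 classes that share their library, and no test was made.

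**Figure D1:**
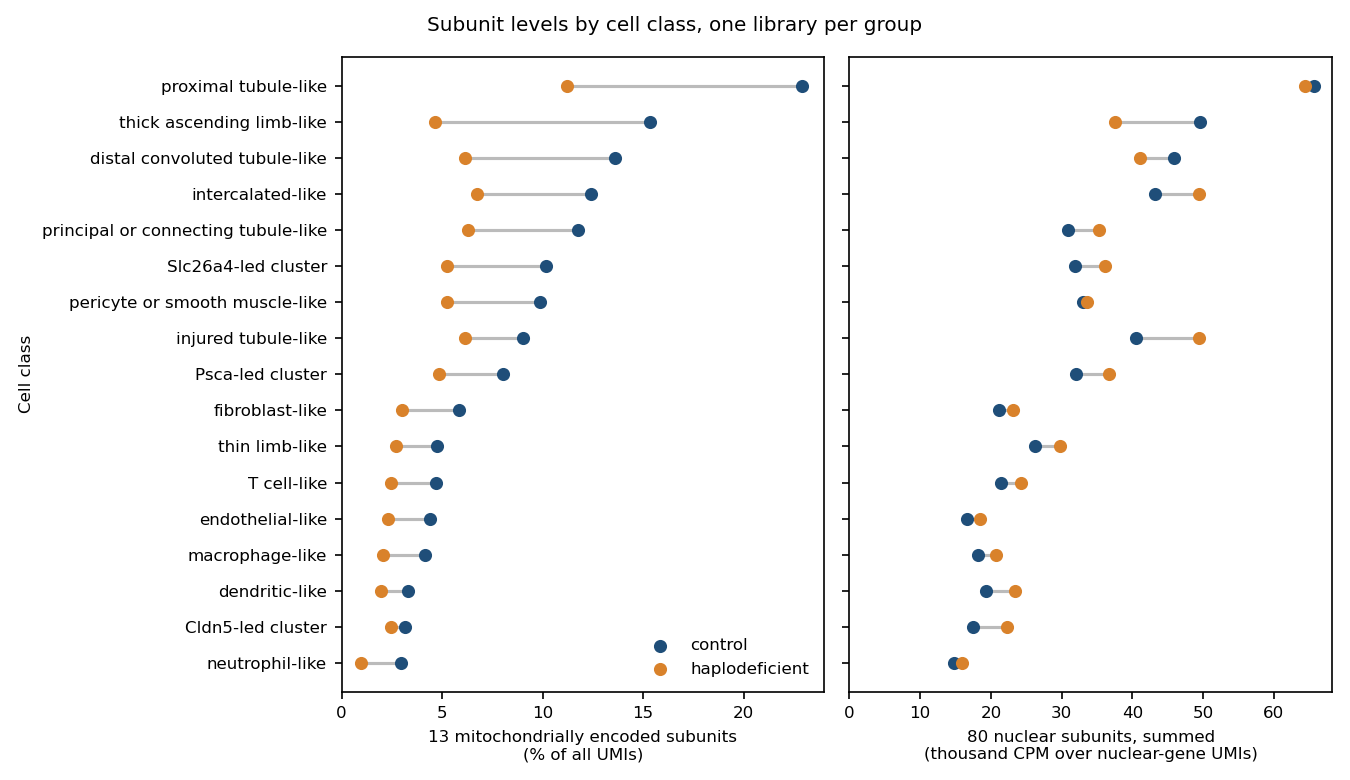
Share of all UMIs from the 13 mitochondrially encoded subunit genes (left, percent) and summed level of the 80 nuclear subunit genes (right, axis in units of 1000 CPM over nuclear-gene UMIs) in 17 cell classes, 1 point per library and class, ordered by the control's mitochondrial share. All 17 classes lie lower in the haplodeficient library on the left, while 14 of 17 lie higher on the right.

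Free RNA differed between the libraries alongside these shares. From markers of other classes, the part of an endothelial-like cell's UMIs that came from free RNA was estimated at 9.37% for the control and at 5.44% for the other library; at the free RNA's own composition this part would carry 2.16 and 0.484 percentage points of mitochondrial UMIs. With the expected free RNA subtracted, the endothelial-like ratio was 0.789 in place of 0.528, and the mitochondrial share stayed lower in the haplodeficient library in all 17 classes, with ratios from 0.306 to 0.930. Markers of proximal tubule cells moved alongside: their 10 genes summed to 319 CPM in control endothelial-like cells, none at 0, and to 11.6 CPM in the haplodeficient ones, 2 at 0. In thick ascending limb-like cells free RNA was estimated at 4.01% and 1.70% of UMIs, and subtraction left the ratio at 0.306. In neutrophil-like cells the estimates were 7.22% and 3.50%. That part would carry 1.66 and 0.312 percentage points of mitochondrial UMIs, out of 2.97% and 0.945% in all.

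The mitochondrial genes did not move as a block. In endothelial-like cells mt-Nd3, a small core subunit of complex I, stood at 1531 CPM of all UMIs in the control (3048 UMIs) and at 551 in the other library (2381 UMIs), a ratio of 0.360 (0.341 to 0.379). mt-Nd4l, another small complex I subunit, stood at 401 CPM (798 UMIs) and 517 CPM (2236 UMIs), a ratio of 1.29 (1.19 to 1.40). So the first was lower and the second higher by more than counting error within the same cells. Genes averaging 50 CPM or more over the libraries, with 30 or more UMIs in all, are called eligible, and one meets the size rule with a difference of at least 2-fold and counting intervals that do not overlap. 5 of the 12 eligible mitochondrial genes met the size rule as lower in endothelial-like cells (mt-Co3, mt-Cytb, mt-Nd1, mt-Nd2 and mt-Nd3), against 1.05% of 3920 eligible nuclear genes. By the estimate above, free RNA could supply 65.4% of the mt-Co3 UMIs and 57.4% of the mt-Nd2 UMIs in control endothelial-like cells, and 27.8% and 18.2% in haplodeficient ones.

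In thick ascending limb-like cells all 13 mitochondrial genes were lower and 11 met the size rule, where 1.37% of 3856 nuclear genes met it as lower. mt-Nd3 went from 5367 to 934 CPM (log2 ratio -2.52) and mt-Co3, a core subunit of complex IV, from 26761 to 6441 CPM (-2.05). The smallest differences there were in mt-Nd4l, 1560 and 890 CPM (-0.81), and mt-Atp8, 435 and 228 CPM (-0.92). In proximal tubule-like cells mt-Nd3 went from 8661 to 2355 CPM while mt-Nd4l was at 2971 and 3781 CPM; 6 mitochondrial genes met the size rule as lower, against 1.17% of 3409 nuclear genes. In injured tubule-like cells mt-Nd4l met the size rule as higher, at 807 and 1669 CPM (log2 ratio 1.04), where 0.354% of 3674 nuclear genes did, and mt-Nd3 as lower, at 2841 and 1291 CPM, where 0.299% did. Over all classes, 82 of 216 pairs of an eligible mitochondrial gene and a class met the size rule in either direction, beside 1.8% of pairs of a nuclear gene and a class. In both libraries each of the 13 genes was highest in proximal tubule-like cells, and mt-Nd2 and mt-Nd4l stood there at over 4 times their median over classes.

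Expressed as a share of the mitochondrial UMIs alone, which removes the overall difference, the make-up of the mitochondrial RNA differed between the libraries in the same direction in every class for 7 genes. The mt-Nd4l share had a median over classes of 0.864% in the control (range 0.659 to 1.30) and 2.40% in the haplodeficient library (1.86 to 3.53); the ranges did not overlap. The same held for mt-Atp8, a small ATP synthase subunit, at 0.284% (0.216 to 0.396) and 0.616% (0.397 to 0.792), and, in the other direction, for mt-Nd3, at 3.33% (2.84 to 3.85) and 2.11% (1.79 to 2.49). mt-Co3 was at 18.9% and 15.4%, lower in 17 of 17 classes (16 with free RNA subtracted), as was mt-Nd2, at 6.05% and 4.82%. mt-Co2 was higher in 17 of 17, at 14.0% and 16.2%, and so was mt-Nd5, at 1.25% and 1.60%, whereas mt-Atp6 differed little, at 17.3% and 17.2%. mt-Nd1 was lower in 16 of 17 classes, at 5.50% and 5.10%.

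The free RNA of each library had the same contrast: mt-Nd4l made up 0.600% of its mitochondrial UMIs in the control, against 1.55% in the other library, and mt-Co3 22.1% and 18.5%; the part of free RNA in the make-up of the cells was not tested. The 17 classes share the same 2 libraries, so their common direction is not 17 independent observations. mt-Nd4l lies at chrM:9877-10173 and overlaps mt-Nd4 by 7 bases on the same strand, and mt-Atp8 at chrM:7766-7969 overlaps mt-Atp6 by 43 bases (GENCODE M21, mm10), so reads from each pair can be hard to assign. mt-Nd3 at chrM:9459-9806 and mt-Nd2 at chrM:3914-4951 overlap no other member.

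**Figure D2:**
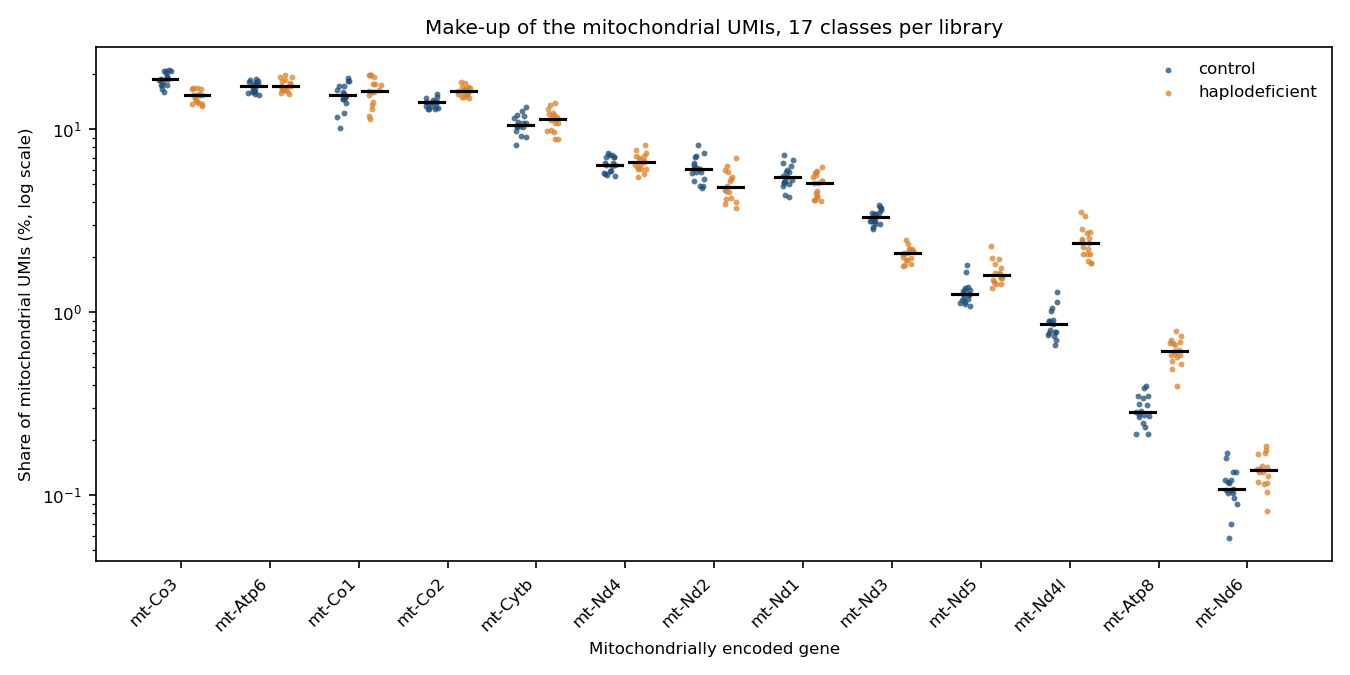
Share of the mitochondrial UMIs (percent, log scale) held by each of the 13 mitochondrially encoded genes, with 1 point per cell class and library and a black bar at the median of 17 classes. mt-Nd4l and mt-Atp8 sit higher in the haplodeficient library without overlap between the libraries, and mt-Nd3 sits lower without overlap.

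Nuclear subunits did not follow the mitochondrial ones. Their summed level, as CPM over the UMIs of nuclear genes so that the mitochondrial share does not enter, was higher in the haplodeficient library in 14 of 17 classes, with a median ratio over all 17 of 1.13. In endothelial-like cells it was 16686 CPM in the control (16503 to 16870) and 18449 in the other library (18320 to 18579), a ratio of 1.11 (1.09 to 1.12). The Cldn5-led cluster had the highest ratio, 1.27, from 17525 to 22293 CPM; injured tubule-like cells had 40505 and 49395 CPM and dendritic-like cells 19277 and 23352 CPM. Pericyte or smooth muscle-like cells were nearest to equality among those that were higher, at 32985 and 33635 CPM. With only cells of 2000 to 8000 UMIs, 9 of 15 classes were higher.

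3 classes were lower, all of them tubule segments. Thick ascending limb-like cells had 49621 CPM in the control (49464 to 49780) and 37555 in the other library (37441 to 37668), a ratio of 0.757 (0.754 to 0.760). Distal convoluted tubule-like cells had 45961 and 41089 CPM (ratio 0.894, 0.889 to 0.899) and proximal tubule-like cells 65699 and 64390 CPM (0.980, 0.975 to 0.985), a direction that turned over all UMIs (1.13). Its 5 clusters, in the order of the mitochondrial ratios above, had nuclear ratios of 0.955, 0.999, 0.846, 1.03 and 1.07, and without the shallowest cluster the class stood at 0.964. All 3 turned when cells above 10% mitochondrial UMIs were left out. The difference is thus marked in the thick ascending limb-like class and small in the proximal tubule-like class. Each class's own markers were lower there too: the 7 thick ascending limb markers, among them Slc12a1 and Umod, summed to 32523 and 20105 CPM, the 7 distal convoluted tubule markers to 8295 and 3468 CPM, and the 10 proximal tubule markers to 13597 and 10072 CPM, none at 0. Own markers were lower in some classes with a higher nuclear level as well: from 6589 to 3857 CPM in principal or connecting tubule-like cells (nuclear ratio 1.14), from 4235 to 3305 in thin limb-like (1.13), from 2729 to 2397 in injured tubule-like (1.22) and from 845 to 617 in dendritic-like cells (1.21). The make-up of the principal or connecting tubule-like class differed too. Its cluster led by Aqp2 held 202 control and 12 haplodeficient cells, and its other cluster 343 and 598. Their nuclear ratios were 1.46 and 1.21, both above that of the class. Their mitochondrial ratios were 0.760 and 0.696, beside 0.534 for the class. The part of marker levels or make-up in the result was not tested. Median UMIs per cell were 13964 and 21635 in thick ascending limb-like cells; among those of 2000 to 8000 UMIs the level was 61515 and 44435 CPM, lower as well.

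Gene by gene, 56 of 71 eligible nuclear members had a log2 ratio above 0 in endothelial-like cells, where 46.5% of 3920 nuclear genes did; their median was 0.13, against -0.03 over all eligible genes. The highest were Ndufa11, an accessory subunit of complex I, at 137 CPM (260 UMIs) and 200 CPM (843 UMIs), a ratio of 1.46 (1.27 to 1.68), and Ndufb5 and Ndufs8, other complex I subunits, with log2 ratios of 0.50 and 0.49. The lowest were Cox7a2l, which joins complexes III and IV into supercomplexes, at 273 CPM (519 UMIs) and 213 CPM (901 UMIs), a ratio of 0.782 (0.701 to 0.873), and Ndufv1 (log2 ratio -0.30), which binds NADH, and Atp5b (-0.29), the catalytic subunit of ATP synthase. By complex, the summed nuclear level in endothelial-like cells had ratios of 1.13 for complex I, 1.12 for complex III, 1.10 for complex IV and 1.09 for ATP synthase, while the mitochondrially encoded genes of the same complexes had ratios of 0.506, 0.485, 0.536 and 0.562.

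In thick ascending limb-like cells 70 of 73 eligible nuclear members had a log2 ratio below 0, where 52.5% of 3856 nuclear genes did; the median was -0.36 against -0.02. Among the lowest were Ndufs1 (139 and 70.1 CPM, log2 ratio -0.94), a core subunit that carries electrons in complex I, and Cox6a1 of complex IV (570 and 318 CPM, -0.83). The 3 members that were not lower were Atp5g2 (618 and 764 CPM, 0.30), which encodes the ring subunit of ATP synthase, Ndufs5 (367 and 374 CPM) and Ndufa7 (519 and 524 CPM). All 8 members of complex III and all 12 eligible members of complex IV were lower, with medians of -0.47 and -0.49; complex I had a median of -0.33 with 34 of 36 lower, and ATP synthase -0.36 with 16 of 17 lower.

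Distal convoluted tubule-like cells had 56 of 73 members below 0 (median -0.11), where 52.4% of all genes were, and proximal tubule-like cells 40 of 73 (median -0.03), where 51.7% were. In proximal tubule-like cells Ndufs1 was again the lowest, at 190 and 123 CPM, and Atp5g2 the highest, at 576 and 779 CPM. In injured tubule-like cells 64 of 73 members were above 0 with a median of 0.28, where 45.6% of all genes were. Its highest members were Ndufv3 (213 and 350 CPM), Ndufa11 (220 and 357 CPM) and Atp5md (617 and 962 CPM). In macrophage-like cells 61 of 71 were above 0 (median 0.21), where 45.6% of genes were, and in the Cldn5-led cluster 65 of 71 (median 0.35), where 42% were.

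No nuclear member met the size rule in any of the 17 classes: 0 of 1223 eligible pairs of a member and a class, while 1.8% of 61209 pairs did over all nuclear genes. The differences of the nuclear members were thus small ones shared by many genes, within a range of log2 ratios from -0.94 to 0.82 over all eligible pairs. Members with few reads were left out of such counts: 65 nuclear members were eligible in every class, 11 in some, and 4 (Cox6a2, Cox7b2, Cox8b and Cox8c) in none.

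**Figure D3:**
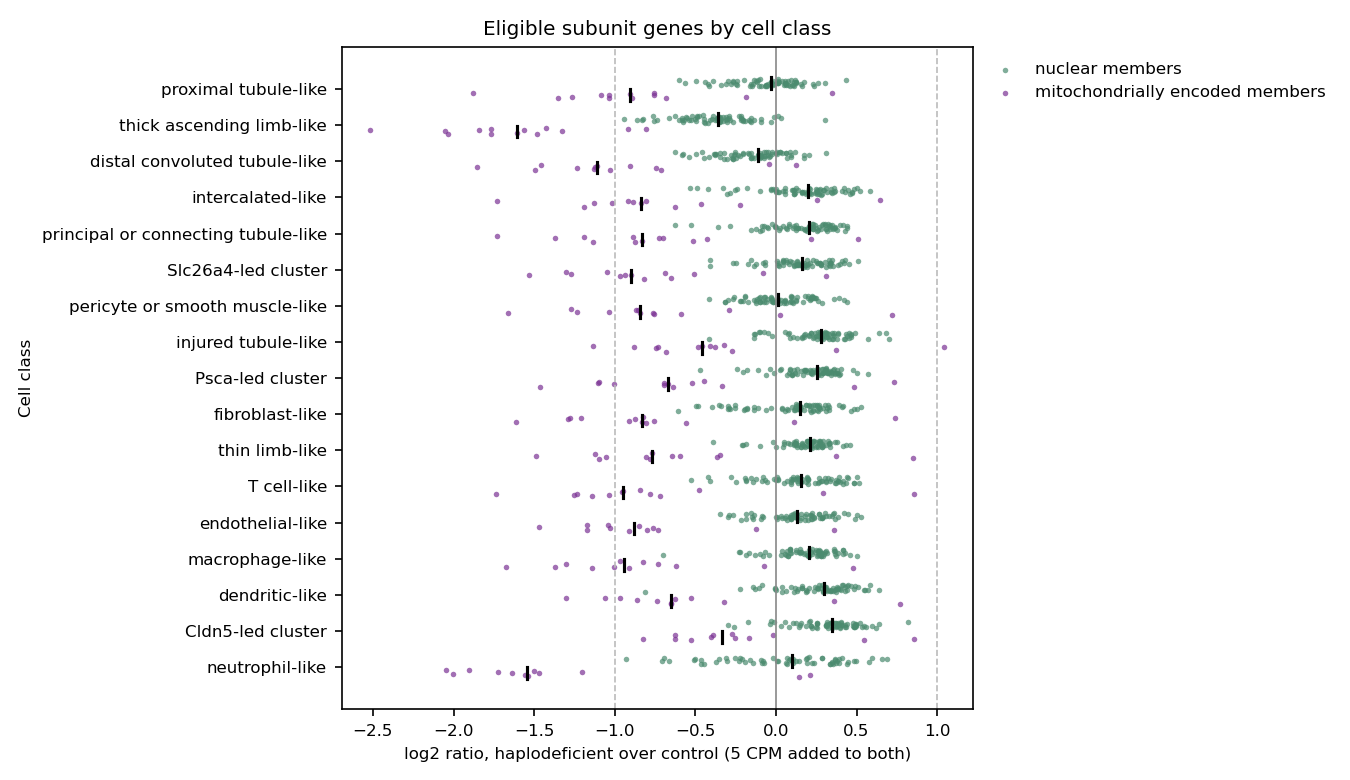
Log2 ratio of the haplodeficient over the control library (5 CPM added to both) for each eligible subunit gene in 17 cell classes, nuclear genes in green and mitochondrially encoded genes in purple, with black bars at the medians and dashed lines at a 2-fold difference. Nuclear genes stay inside the dashed lines in every class, with the median at -0.36 in thick ascending limb-like and 0.35 in the Cldn5-led cluster, while most mitochondrial genes lie to the left.

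Some nuclear members kept 1 direction in all 17 classes. Atp5g2, Ndufa7 and Ndufs5 were higher in the haplodeficient library in 17 of 17, with median log2 ratios over classes of 0.42, 0.26 and 0.33; Atp5a1, Atp5b and Cox7a2l were lower in 17 of 17, with medians of -0.24, -0.29 and -0.41. Atp5a1 and Atp5b encode the alpha and beta subunits of the catalytic head of ATP synthase, whereas Atp5g2 encodes its membrane ring. The genes on the 2 sides also differ in transcript length. Atp5a1, Atp5b and Cox7a2l have 2471, 1916 and 1076 bases, and Atp5g2, Ndufa7 and Ndufs5 have 731, 528 and 680. Members named next do not all divide this way. Cox4i1 and Cox6a1, lower in most classes, have 765 and 571 bases, and Ndufb5, higher in most, has 1079. Cox8a, Ndufa11, Ndufs7, Uqcrb and Atp5j, also higher in most, are each under 1000 bases. The part of length in these directions was not tested. Cox4i1 was lower in 16 classes and Cox6a1 in 15, while Cox8a, Ndufa11, Ndufb5, Ndufs7, Uqcrb and Atp5j were higher in 16. Ndufs1 was lower in all 8 classes in which it was eligible. Of the 65 members eligible everywhere, 3 were thus higher in every class, where 17.3% of the 1121 nuclear genes eligible in every class were, and 3 lower in every class, where 7.4% were. 56 of the 65 were higher in more classes than they were lower, as were 60.5% of the 1121. Recomputed for Ndufs5 and Atp5b, the counts were 10 and 14 of 15 classes in cells of 2000 to 8000 UMIs, and 17 and 16 of 17 over all UMIs. As for the mitochondrial genes, the classes share their 2 libraries and are not independent.

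Differences over nuclear genes outside the members moved with transcript length, and those of the members did so weakly or not at all in some classes. Across eligible nuclear genes that are not members, the log2 ratio had a negative Spearman correlation with transcript length in every class, from -0.59 in the Psca-led cluster to -0.27 in fibroblast-like cells, so short transcripts were relatively higher in the haplodeficient library; across the members it ran from -0.36 to 0.01. In endothelial-like cells the 45 members under 1000 bases had a median log2 ratio of 0.19 and the 26 longer ones 0.08, beside 0.24 and -0.06 for the 324 and 3524 other genes. In thick ascending limb-like cells the short members had a median of -0.35 and the longer ones -0.41, beside 0.28 and -0.05 for other genes. The part of transcript length in any class was not tested.

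Sequences before the start sites are shown for 4 members that moved in opposite directions over the classes: Ndufs5 and Ndufa11, higher in 17 and 16 classes, and Atp5b and Cox6a1, lower in 17 and 15. They are from RefSeq on GRCm38.p6, 5′ to 3′ on the gene's strand, and end before the first transcribed base of both RefSeq and GENCODE M21. They lie at chr4:123718203-123718436 (minus strand), chr17:56717512-56717761 (plus), chr10:128083057-128083272 (plus) and chr5:115348982-115349208 (minus), and capitals mark the core of the element bound by NRF1, a regulator of nuclear genes for mitochondrial proteins.
Ndufs5: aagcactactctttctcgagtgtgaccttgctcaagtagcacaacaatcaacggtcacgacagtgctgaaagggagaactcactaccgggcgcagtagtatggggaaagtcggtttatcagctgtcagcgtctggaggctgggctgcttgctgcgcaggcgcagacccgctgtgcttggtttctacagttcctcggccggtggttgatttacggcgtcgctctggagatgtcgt
Ndufa11: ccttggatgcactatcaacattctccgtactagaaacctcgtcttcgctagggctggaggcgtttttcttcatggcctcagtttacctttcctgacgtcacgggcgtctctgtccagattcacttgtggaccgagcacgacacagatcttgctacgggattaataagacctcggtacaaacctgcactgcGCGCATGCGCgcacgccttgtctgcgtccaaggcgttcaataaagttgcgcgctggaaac
Atp5b: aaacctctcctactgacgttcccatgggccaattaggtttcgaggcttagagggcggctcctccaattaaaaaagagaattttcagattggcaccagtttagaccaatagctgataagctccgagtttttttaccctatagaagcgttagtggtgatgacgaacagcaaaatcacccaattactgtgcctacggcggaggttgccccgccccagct
Cox6a1: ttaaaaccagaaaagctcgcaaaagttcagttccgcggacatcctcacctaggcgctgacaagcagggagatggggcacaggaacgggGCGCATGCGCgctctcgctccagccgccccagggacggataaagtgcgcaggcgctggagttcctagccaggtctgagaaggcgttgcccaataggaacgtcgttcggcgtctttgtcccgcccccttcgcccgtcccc
The NRF1 core searched was GCATGCGC on either strand, and its 2 orientations overlap to GCGCATGCGC in both Ndufa11 and Cox6a1. Ndufa11, which was higher, and Cox6a1, which was lower, thus hold the same letters. In windows of 300 bases around the start (250 before and 50 after), 9 of the 66 nuclear members found in the RefSeq table held the core, or 13.6%, beside 3.05% of 27025 genes. The core of the YY1 element, AAGATGGC, was in 10 of 66 (15.2%) beside 3.19%, and the element of the estrogen-related receptors, TCAAGGTCA, in 1 of 66 (Atp5g3) beside 0.466%. A match describes letters only.

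Several complex IV subunits exist as tissue variants, and their levels were high in few classes. Cox4i2, the oxygen-linked alternative to Cox4i1, was found in pericyte or smooth muscle-like cells at 215 CPM in the control (135 UMIs) and 160 CPM in the other library (202 UMIs), a ratio of 0.745 (0.596 to 0.934). The Cldn5-led cluster followed with 45.1 CPM (61 UMIs) and 54.7 CPM (135 UMIs), a ratio of 1.21 (0.890 to 1.67). Endothelial-like cells had 4 and 22 UMIs, 2.10 and 5.21 CPM. Cox4i2 was thus highest in the same class in either library, while Cox4i1 was present in all classes, at 660 to 2727 CPM in the control and 509 to 2243 CPM in haplodeficient cells.

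Cox7a1, the form of Cox7a known from heart and muscle, was highest in intercalated-like cells in both libraries, at 109 CPM (154 UMIs) and 73.8 CPM (74 UMIs). In proximal tubule-like cells it stood at 52.9 and 44.5 CPM, and in thick ascending limb-like cells at 40.5 CPM (309 UMIs) and 10.1 CPM (113 UMIs), a ratio of 0.249 (0.199 to 0.309); at a mean under 50 CPM it was not eligible there. Its counterpart Cox7a2 was at 294 to 1628 CPM over the classes in the control. Cox6b2, known from testis, was highest in fibroblast-like cells, at 49.1 CPM (31 UMIs) and 62.8 CPM (62 UMIs), with thin limb-like cells at 14.3 and 23.0 CPM.

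Cox6a2, known from heart and muscle, was near 0 in the compared classes, with at most 4.03 CPM (control) and 7.10 CPM (haplodeficient). It stood at 1718 CPM (84 UMIs in 10 cells) and 961 CPM (97 UMIs in 16 cells) in the plasmacytoid dendritic-like cells, a class too small to compare. Cox8b had 1 UMI and Cox8c 2 UMIs in all classes together. Within ATP synthase, the 3 genes for the ring subunit, which encode the same mature protein, differed: Atp5g1 was highest in proximal tubule-like cells (1284 and 1394 CPM) at 3.37 and 2.94 times its median over classes, whereas the highest class of Atp5g2 lay at 1.24 and 1.21 times its median over classes. Ndufa4 was also highest in proximal tubule-like cells, at 2414 and 2691 CPM.

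**Figure D4:**
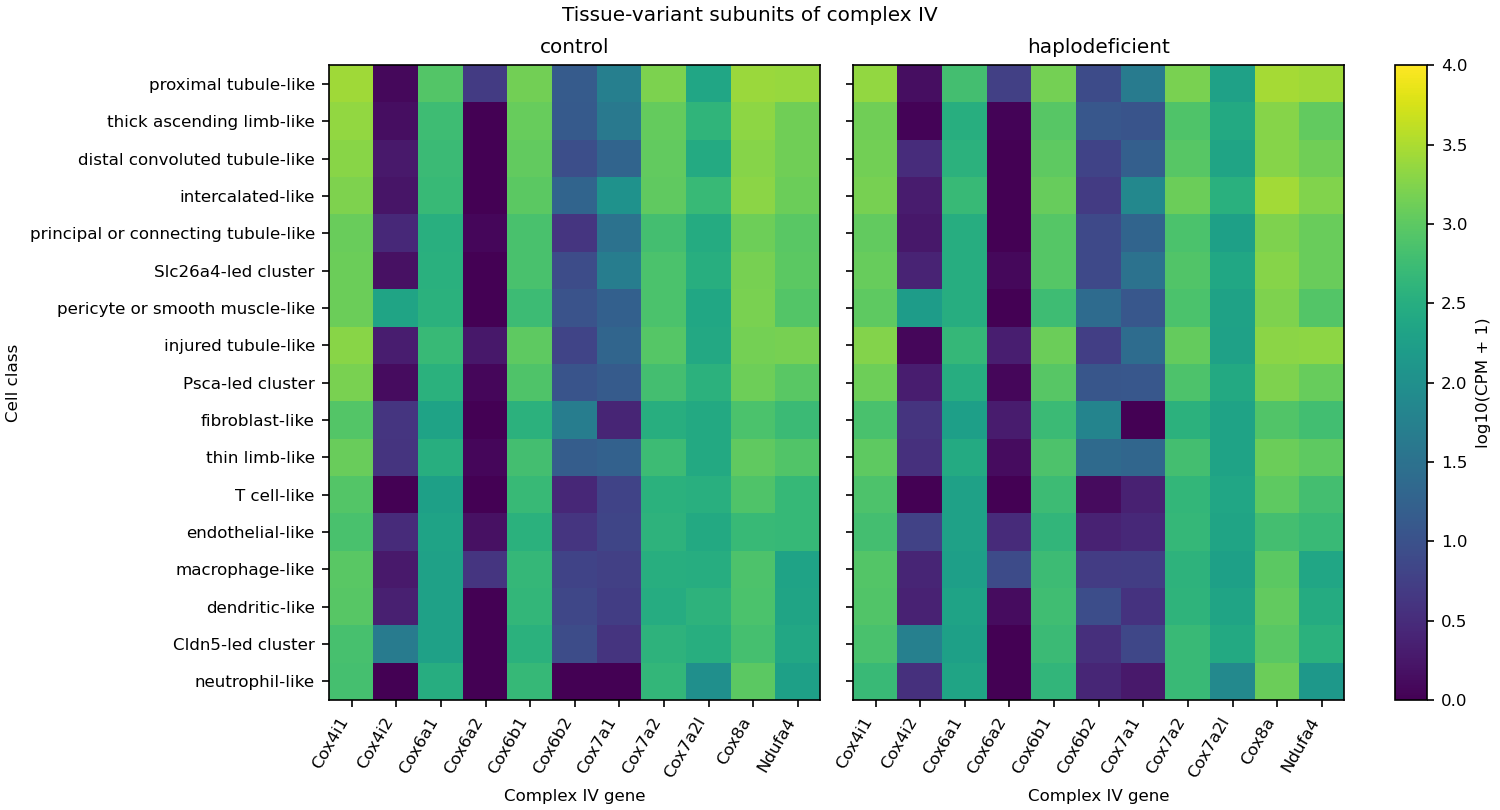
Level of 11 complex IV genes, as log10(CPM + 1), in 17 cell classes of the control (left) and haplodeficient (right) library. Colours are to be compared down a column, since 3′ counts are not scaled to length: Cox4i2 stands out in pericyte or smooth muscle-like cells (215 and 160 CPM) and Cox7a1 in intercalated-like cells (109 and 73.8 CPM).

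Other genes of mitochondrial function were taken from lists. Regulators of mitochondrial mass had a median log2 ratio of -1.21 over 4 eligible genes in thick ascending limb-like cells, the lowest of all lists and classes, and 3 of the 4 met the size rule as lower, where 1.37% of nuclear genes did. Ppargc1a, the coactivator that drives mitochondrial biogenesis, stood at 547 and 236 CPM (log2 ratio -1.19). Esrrg, its nuclear receptor partner, stood at 1617 and 685 CPM (-1.23), and Esrrb at 96.9 and 20.3 CPM (-2.01). The fourth, Yy1, was at 99.0 and 107 CPM. Esrrg was also lower in thin limb-like cells, at 343 and 153 CPM, and Ppara, a regulator of fatty acid oxidation, in proximal tubule-like cells, at 142 and 62.3 CPM, where 0.947% and 1.17% of genes met the rule as lower. The list's median was below 0 in 15 of 17 classes, each with 1 to 5 eligible genes: it was -0.82 in principal or connecting tubule-like, -0.59 in distal convoluted tubule-like, -0.55 in intercalated-like and -0.52 in injured tubule-like cells, where no gene of the list met the size rule. In endothelial-like cells 2 genes of the list were eligible, 1 above and 1 below 0.

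Citric acid cycle enzymes were below 0 in 14 of 14 genes in thick ascending limb-like cells (median -0.52), where 52.5% of all genes were below 0. In endothelial-like cells 7 of 7 eligible genes were below 0 (median -0.20), where 53.5% of all genes were. Complex II, the succinate dehydrogenase shared by the cycle and the chain, was below 0 in 4 of 4 subunits in thick ascending limb-like cells (median -0.52). It was below 0 in 2 of 4 in endothelial-like cells (-0.07). The same shares of all genes, 52.5% and 53.5%, stand beside these counts. Assembly factors, which build the complexes, had a median above 0 in 17 of 17 classes. In endothelial-like cells 10 of 11 were above 0 (0.23), beside 46.5% of all genes. In thick ascending limb-like cells 13 of 15 were (0.10), beside 47.5%. Genes under 1000 bases that are not members had medians of 0.24 and 0.28 in the same classes, and longer ones -0.06 and -0.05. The part of transcript length in the lists was not tested. Mobile carriers and exchangers were above 0 in 6 of 6 genes in endothelial-like cells, and the list of oxygen-linked subunit exchange in 3 of 3, beside 46.5% of all genes. In thick ascending limb-like cells the carriers had 2 above and 4 below 0 (median -0.08) and the exchange list 2 and 2 (-0.03), where 47.5% of all genes were above 0. Genes of mitochondrial DNA upkeep and transcription had 3 eligible in endothelial-like cells, 1 above and 2 below 0 (median -0.16), where 46.5% of all genes were above 0. In thick ascending limb-like cells 3 of 3 eligible were above 0 (0.16), where 47.5% of all genes were. The median of this list was above 0 in 13 classes and below 0 in 3. Of the mitophagy genes, 3 of 5 eligible were above 0 in endothelial-like cells (median 0.12) and 4 of 7 in thick ascending limb-like cells (0.09), beside 46.5% and 47.5% of all genes. Of the 2 lists set beside these, the cytosolic ribosome genes had medians of 0.15 in endothelial-like and 0.14 in thick ascending limb-like cells, and the dissociation stress genes -0.07 and 0.22. Over the 17 classes the stress medians ran from -0.60 in the Cldn5-led cluster to 0.53 in T cell-like cells. They were above 0 in 7 classes and below 0 in 10.

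The limit on a cell's mitochondrial share bears on every value here, since it cuts on the measured quantity. Above 10% lay 86.0% of control and 38.4% of haplodeficient proximal tubule-like cells, 67.7% and 5.42% of thick ascending limb-like cells, and 12.5% and 1.99% of endothelial-like cells. Above 25% lay 44.7% and 6.34% of proximal tubule-like cells and 30.1% and 0.739% of thick ascending limb-like cells. A common limit thus removes a different part of the 2 libraries.

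With limits of 25% and 10% the mitochondrial share stayed lower in the haplodeficient library in all 17 classes, but the median ratio went from 0.528 at 50% to 0.572 and 0.696. The nuclear level turned with the limit in the 3 lower classes: at 10% it was higher in all 17, with ratios of 1.17 in thick ascending limb-like, 1.11 in distal convoluted tubule-like and 1.22 in proximal tubule-like cells. At 25% the proximal tubule-like class was higher (1.03) and the thick ascending limb-like class lower (0.837). In endothelial-like cells the nuclear ratio was 1.10 at 25% and 1.15 at 10%. Without any limit the median ratios were 0.516 for the mitochondrial share and 1.13 for the nuclear level.

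**Figure D5:**
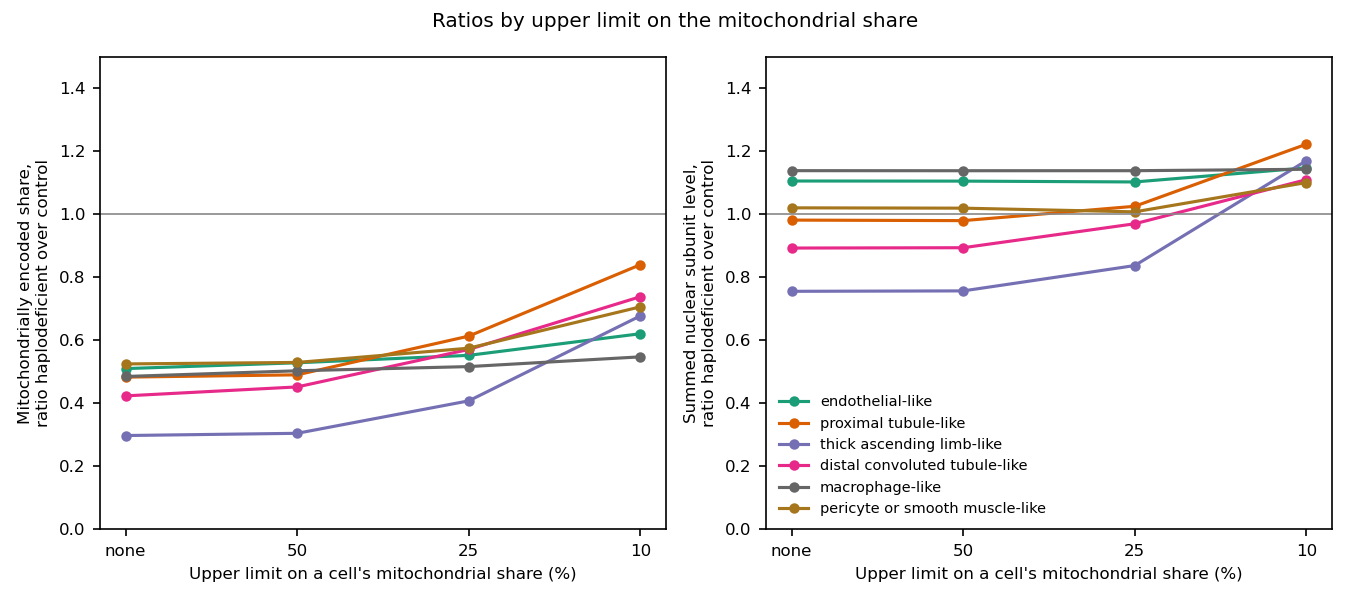
Ratio of the haplodeficient over the control library for the mitochondrially encoded share (left) and the summed nuclear subunit level (right) in 6 classes, against the upper limit on a cell's mitochondrial share; the grey line marks equality. The left ratios stay under 1 throughout, and on the right the thick ascending limb-like ratio goes from 0.757 at a limit of 50% to 1.17 at 10%.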

How the data were processed

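The deposited matrices hold raw UMI counts per gene and barcode, made with Cell Ranger 4 per the file headers and on mm10 per the submitters' processing notes. They are unfiltered, and a cell-hashing library that the labels' protocols mention was not analysed here. The 2 libraries held 134190236 (control) and 114668145 UMIs.

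Barcodes were kept with at least 500 UMIs, 200 genes and at most 50% mitochondrial UMIs. Doublets were removed by a score against simulated doublets, at a rate of 0.8% per 1000 cells. Cells were clustered with leidenalg 0.10.2 at resolution 1, on 2000 variable genes without the members or other mt- genes, 30 principal components and 15 neighbours, with no batch correction. Classes were named from 22 marker lists, with cell types rebuilt here since the labels gave none. Counts were summed per class and library with Python 3.11.15. Mitochondrial genes are given over all UMIs and nuclear genes as CPM over UMIs of nuclear genes, so neither scale is per length. Log2 ratios had 5 CPM added. Intervals are exact Poisson, Clopper-Pearson and conditional binomial ones at 95%. Free RNA was taken from barcodes of 1 to 100 UMIs. The size rule and the ratio intervals were tested on simulated Poisson counts with known changes. Free RNA subtraction, doublet removal and class naming were not simulated.

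The members and lists were chosen with earlier results of these data known. The named genes were all mitochondrial members, the tissue variants with their counterparts, per class the 3 highest and 3 lowest nuclear members, members at 4 times or more their median over classes, and up to 3 list genes per class that met the size rule. Some genes that this rule names are not reported here. Members named for keeping 1 direction, those whose sequences are shown, and Yy1 were chosen after their values were seen. Alternatives were other limits on UMIs and on the mitochondrial share, doublets kept, other scalings, eligibility limits and pseudocounts, free RNA subtracted, weighting by cell or cluster, and other clusterings. Those with cells of 2000 to 8000 UMIs, with the Cldn5-led cluster joined, and without the shallowest proximal tubule cluster were chosen after seeing the data.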

Additional observations from a re-analysis of the deposited data

Results flagged for a closer look

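The nuclear subunit level was lower in the haplodeficient library in 3 classes while it was higher in endothelial-like cells, where the ratio was 1.11. The ratio was 0.980 in proximal tubule-like cells, 0.757 in thick ascending limb-like cells and 0.894 in distal convoluted tubule-like cells. With 1 library per group the difference between these classes and the endothelial-like class was not tested.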

How the results depend on the processing

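No paired analysis was possible because each group has 1 library; for the same reason no replicate could be left out. The mitochondrial share was lower in the haplodeficient library in every class that each alternative gave a value for (14 to 17 classes). The endothelial-like mitochondrial ratio of 0.528 was 0.510 without a limit on the mitochondrial share, 0.552 and 0.621 with limits of 25% and 10%, 0.534 with at least 1000 UMIs, 0.459 with doublets kept, 0.789 with free RNA subtracted, 0.514 as a mean over cells and with equal cluster weights, 0.502 at resolution 2, 0.597 with classes set cell by cell, 0.568 in cells of 2000 to 8000 UMIs and 0.609 with the Cldn5-led cluster joined. The endothelial-like nuclear ratio of 1.11 was 1.15 at a limit of 10% and in cells of 2000 to 8000 UMIs, 1.13 over all UMIs and with median of ratios scaling, 1.27 with free RNA subtracted, 1.17 with classes set cell by cell and 1.17 with the Cldn5-led cluster joined. In cells of 2000 to 8000 UMIs the nuclear level was higher in 9 of 15 classes rather than 14 of 17, for a cause that was not tested.

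With free RNA subtracted, the mt-Co3 share of mitochondrial UMIs was lower in 16 rather than 17 of 17 classes. Ndufs5 and Atp5b no longer kept 1 direction in every class in cells of 2000 to 8000 UMIs, nor did Atp5b over all UMIs, as given above. Among the ratios and medians of single classes, the directions that turned were in the nuclear level. In proximal tubule-like cells the ratio was 1.03 at a limit of 25%, 1.22 at 10% and 1.13 over all UMIs, with median log2 ratios of 0.039, 0.28 and 0.17. At 10% it was 1.17 (median 0.25) in thick ascending limb-like and 1.11 (0.17) in distal convoluted tubule-like cells, whose median over all UMIs was 0.0086. In cells of 2000 to 8000 UMIs it was 0.967 (median -0.059) in injured tubule-like, 0.998 (-0.018) in intercalated-like and 0.972 in Psca-led cells, which had 0.926 as a mean over cells and with equal cluster weights. The pericyte or smooth muscle-like median was -0.0048 at 25%. A limit on the mitochondrial share removes cells by the measured quantity; the causes of the other turns were not tested. Depth limits the rare variants: Cox8b and Cox8c had too few UMIs for any comparison.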
